A study of Mus musculus with 15 samples.

Results

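The Kupffer cell markers are 10 genes, Clec4f, Cd5l, Vsig4, Marco, Csf1r, C1qa, C1qb, C1qc, Cd68 and Lyz2, chosen by name as genes of the liver's resident macrophages. They were read as a measure of other liver cells in cultures and isolates of mouse hepatocytes. Every probe whose gene name in the scanner files was one of the 10 was taken, which gave 13 probes of 41174 (10 genes of 27343), with 3 probes for Csf1r and 2 for Lyz2. RNA from mHep, eHep and primary samples was hybridised to 1-colour Agilent arrays. The mHep samples (7 arrays) and the eHep samples (7 arrays) were expandable hepatocytes grown for 21 days, and both came from the same 3 mice. The labels do not spell out mHep, which was taken to be the culture in differentiation medium, and eHep cultures were kept in expansion medium. Mice 129S1-No1 and C57B6-No1 gave 3 arrays in each medium, and mouse 129S1-No2 gave 1 in each. The remaining sample was 1 array of primary hepatocytes from C57B6 mice, isolated by collagenase perfusion. The labels used here give strain and liver origin, and no genotype, agent, sex or age. The mHep array from mouse 129S1-No2 has a source name of eHep cells, and its title decided its group.

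Kupffer cells are macrophages that sit in the liver sinusoids, where they clear bacteria, dying cells and debris from portal blood. They depend on signalling through the receptor encoded by Csf1r. In the mouse, Clec4f is used as their most specific marker, Cd5l and Vsig4 as further markers of resident cells, and the C1q genes, Cd68 and Lyz2 as genes shared by many macrophages. Collagenase digestion of liver releases these cells together with hepatocytes.

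Signals are given as the processed signal of the scanner software, and levels as log2 signal minus the 75th percentile of the same array. Group levels are mean ± SD over 3 mouse means, and differences are log2 ± SE. A probe that the software did not call well above background is described as dark. The share of all probes called well above background was 48.8% to 61.9% on cultured arrays and 36.3% for primary cells. The 75th percentile of signal ranged from 249 to 827 in the cultures and was 78.3 for primary cells, so that equal signals correspond to a higher level on the primary array. The primary group has no replicate, and the fits assumed that it varies like the means of the cultured mice. Replicates of a mouse in a medium share that animal, so p-values within a mouse measure the spread between these arrays only.

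The primary array detected 8 of the 10 genes, more than any cultured array. The mHep arrays detected 3 to 5 of the 10 and the eHep arrays 2 to 5. Clec4f, Cd5l and C1qa were above background on the primary array alone, whereas Cd68 was bright on each cultured array and dark on the primary array. The summed signal of the 10 genes, divided by the array's 75th percentile, was 0.416 to 1.49 in mHep, 0.237 to 4.13 in eHep and 24.7 on the primary array. Before this division the sums lay closer together, at 246.3 to 1069.5 in mHep, 195.8 to 1365.8 in eHep and 1930.8 on the primary array. Much of the scaled gap thus reflects the lower percentile of the primary array. In bulk RNA, fewer cells of a type and less RNA per cell cannot be told apart.

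**Figure D1:**
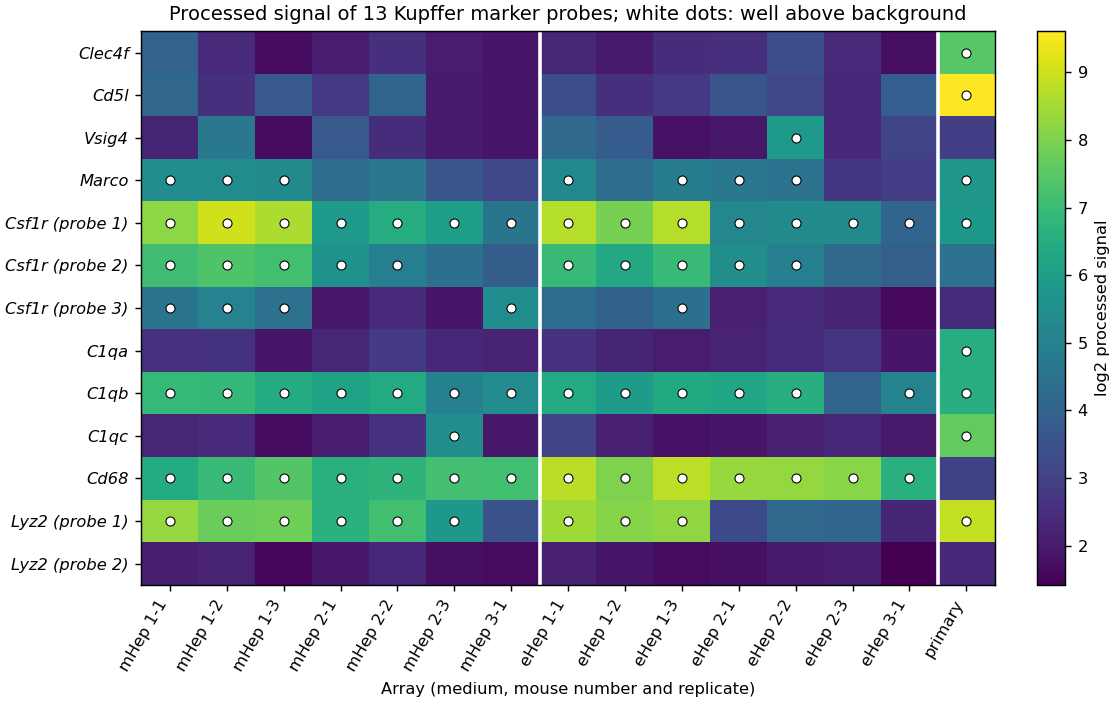
Log2 processed signal (colour) of the 13 probes of the Kupffer markers (rows) on 7 mHep arrays, 7 eHep arrays and 1 primary array (columns), with white dots where the probe was well above background. Clec4f, Cd5l and C1qa have a dot in the primary column only, and Cd68 has a dot in each column except primary.

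Clec4f encodes a C-type lectin of the Kupffer cell surface. Its probe had a signal of 3.21 to 15.9 (median 4.22) in mHep, 3.28 to 10.2 (median 5.26) in eHep and 178 in primary cells. It was dark on each of the 14 cultured arrays, and none of their signals overlapped the primary one. Clec4f was at least 70.1-fold lower in mHep than in primary cells (level -6.87 ± 0.35 against 1.19, difference -8.06 ± 0.88, limma adjusted p = 0.00393). It was at least 65.7-fold lower in eHep (level -6.69 ± 1.11, difference -7.88 ± 0.88, limma adjusted p = 0.00356). These bounds raise dark readings to the lowest signal called above background on their array. Here and below, such a bound holds only for levels scaled to the array's percentile and for the main background correction. The raw signals of Clec4f lie closer together, since that percentile was lower on the primary array. Clec4f, Cd5l, C1qa and C1qc entered the tests against primary cells only through the primary array, where they are bright. Their adjusted p-values and calls, here and below, are therefore given as a description and not read as support. The probe (NM_016751), at chr6:83595281-83595339 in mm9, minus strand, is shown because it reads the marker most closely tied to Kupffer cells.
Clec4f probe: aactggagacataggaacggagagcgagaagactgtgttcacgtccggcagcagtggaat

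Cd5l encodes a secreted scavenger protein, also called apoptosis inhibitor of macrophages. Its signal was 3.70 to 17.5 (median 7.06) in mHep, 5.07 to 14.6 (median 8.95) in eHep and 779.8 in primary cells. All 14 cultured arrays were dark. Cd5l was at least 306-fold lower in mHep than in primary cells (difference -9.70 ± 0.73, limma adjusted p = 0.00229). It was at least 280.9-fold lower in eHep (difference -8.98 ± 0.73, limma adjusted p = 0.00182). With normexp background correction, which compresses dim signals, the Clec4f difference was -3.56 in mHep and -3.70 in eHep, and that of Cd5l was -5.34 and -5.42, all still past the threshold. In size these fall short of the bounds above, which on the same scale were 6.13 and 6.04 for Clec4f and 8.26 and 8.13 for Cd5l. The folds given as bounds thus do not hold under normexp.

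The primary array lay on a slide with 3 cultured arrays, which allows a comparison within 1 hybridisation slide. On it, Clec4f had signals of 4.13 in mHep of C57B6-No1, 5.26 in eHep of C57B6-No1, 3.28 in eHep of 129S1-No2 and 178 in primary cells. Cd5l had signals of 4.01 in mHep of C57B6-No1, 5.07 in eHep of C57B6-No1, 14.6 in eHep of 129S1-No2 and 779.8 in primary cells. The Clec4f differences from primary cells within this slide were -8.61, -8.16 and -9.16 in the same order, and those of Cd5l were -10.78, -10.34 and -9.14.

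C1qa, C1qb and C1qc encode the 3 chains of C1q, the recognition part of the classical complement pathway, and macrophages are a main source of the protein. Their probes lie close together on chromosome 4 in mm9, C1qb at chr4:136436578-136436637, C1qc at chr4:136445766-136445825 and C1qa at chr4:136452409-136452468, all on the minus strand. C1qa had a signal of 3.69 to 7.07 (median 5.07) in mHep, 3.80 to 6.41 (median 4.85) in eHep and 91.2 in primary cells, and it was dark on every cultured array. C1qc had a signal of 3.24 to 44.6 (median 4.91) in mHep, 3.55 to 8.64 (median 4.38) in eHep and 200.4 in primary cells. The 44.6 was replicate 3 of C57B6-No1 in mHep, the only cultured array on which C1qc was above background. C1qb had a signal of 32.1 to 121 (median 86.1) in mHep, 16.9 to 93.6 (median 77.3) in eHep and 95.6 in primary cells. C1qb was above background on 7 of 7 mHep and 6 of 7 eHep arrays, and its mHep signals overlapped the primary one, while each eHep signal lay under it. On the shared slide the C1qb signals were 32.1 in mHep of C57B6-No1, 16.9 in eHep of C57B6-No1, 33.6 in eHep of 129S1-No2 and 95.6 in primary cells, without overlap.

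C1qa was at least 35.8-fold lower in mHep than in primary cells (difference -7.02 ± 0.80, limma adjusted p = 0.00433) and at least 33.6-fold lower in eHep (-6.92 ± 0.80, limma adjusted p = 0.00393). C1qc was at least 73.8-fold lower in eHep (-8.13 ± 0.98, limma adjusted p = 0.00438). In mHep 6 of 7 arrays were dark for C1qc, so its fitted difference of -8.01 ± 0.98 (limma adjusted p = 0.00546) rests on dark readings and is given with no fold. C1qb did not pass the test, with levels of -3.15 ± 0.62 in mHep, -3.29 ± 1.31 in eHep and 0.29 in primary cells. Its difference was -3.44 ± 1.03 in mHep (limma adjusted p = 0.0873) and -3.58 ± 1.03 in eHep (limma adjusted p = 0.0644). C1qb passed the threshold under 4 of 12 alternatives in mHep and 6 of 12 in eHep, always lower than in primary cells. Normexp moved the C1qa difference to -2.92 in mHep and -3.08 in eHep, and that of C1qc to -3.77 and -3.96, each still past the threshold. The bounds do not hold under normexp, since on the same scale they were 5.16 and 5.07 for C1qa and 6.20 for C1qc in eHep. The C1qa and C1qb probes are set side by side because neighbouring genes of 1 complex gave opposite detection in culture.
C1qa probe: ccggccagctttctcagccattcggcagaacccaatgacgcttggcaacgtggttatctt
C1qb probe: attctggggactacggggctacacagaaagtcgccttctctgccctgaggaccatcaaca

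**Figure D2:**
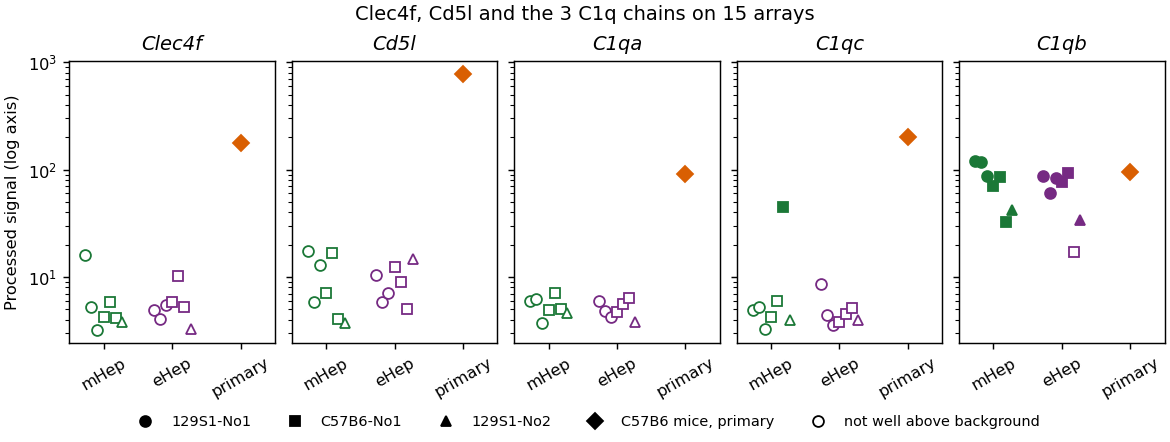
Processed signal (log axis) of Clec4f, Cd5l and the C1q chains on each array, with symbols for the mouse and open symbols for probes not well above background. The primary array is far above the cultures for Clec4f (178), Cd5l (779.8), C1qa (91.2) and C1qc (200.4), but lies within the spread of the cultures for C1qb (95.6).

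The upstream sequences of C1qb and C1qc were compared for the letters GAGGAA, the core of the site bound by PU.1 (Spi1), a factor that macrophages need. The 250 bases before the gene start were searched on both strands (GAGGAA or TTCCTC), the only motif searched, in RefSeq windows of GRCm38.p6. C1qa and Csf1r had no window. They are shown because C1qb was detected in most cultures and its neighbour C1qc in 1. C1qb (chr4:136886201-136886450, minus strand) and C1qc (chr4:136892915-136893164, minus strand) hold 1 match each, in capitals.
C1qb upstream: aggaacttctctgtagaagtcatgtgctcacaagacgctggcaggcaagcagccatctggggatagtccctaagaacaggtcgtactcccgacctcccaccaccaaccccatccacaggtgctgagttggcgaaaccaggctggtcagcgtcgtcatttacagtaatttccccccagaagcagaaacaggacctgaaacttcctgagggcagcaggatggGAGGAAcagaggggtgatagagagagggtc
C1qc upstream: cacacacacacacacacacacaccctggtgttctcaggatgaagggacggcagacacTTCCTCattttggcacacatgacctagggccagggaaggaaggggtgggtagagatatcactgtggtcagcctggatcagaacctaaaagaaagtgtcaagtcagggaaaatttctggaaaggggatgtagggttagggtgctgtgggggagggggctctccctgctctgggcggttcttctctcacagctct
A match was present in the windows of 6 of the 8 marker genes that had one, and in 23.3% of all 32851 windows of this length. The match begins 30 bases before the gene start in C1qb and 193 bases before it in C1qc. A match is a description of these letters and not a measured site, and Spi1 itself was dark on all 15 arrays.

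Marco and Vsig4 encode receptors that bind particles, Marco as a class A scavenger receptor for bacteria and Vsig4 as a receptor for complement-coated particles. Marco had a signal of 9.04 to 43.4 (median 25.0) in mHep, 6.72 to 37.9 (median 23.1) in eHep and 53.7 in primary cells. It was above background on 3 of 7 mHep arrays, all of 129S1-No1 (43.4, 41.1 and 40.8), on 4 of 7 eHep arrays and on the primary array. The primary signal exceeded each cultured one, so the groups did not overlap. The difference from primary cells was -4.36 ± 1.34 in mHep (limma adjusted p = 0.0935) and -4.49 ± 1.34 in eHep (limma adjusted p = 0.0705), which did not pass. It passed under 6 of 12 alternatives in mHep and 8 of 12 in eHep. Vsig4 had a signal of 3.21 to 25.8 (median 4.81) in mHep, 3.54 to 58.3 (median 8.53) in eHep and 7.62 in primary cells. Vsig4 was above background only on replicate 2 of C57B6-No1 in eHep (58.3) and was dark in primary cells, so it was not tested.

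Csf1r encodes the receptor for the macrophage growth factors CSF1 and IL-34. The brightest of its 3 probes was above background on all 15 arrays, at 24.2 to 523 (median 90.4) in mHep, 16.9 to 414 (median 40.4) in eHep and 55.1 in primary cells. The arrays sorted by mouse. In mHep the signals were 294, 523 and 384 in 129S1-No1, 57.8, 90.4 and 63.8 in C57B6-No1, with 24.2 in 129S1-No2. In eHep they were 414, 244 and 411 in 129S1-No1, 37.3, 39.9 and 40.4 in C57B6-No1, with 16.9 in 129S1-No2. The other mouse of strain 129S1 was thus the lowest, and 129S1-No1 and C57B6-No1 did not overlap in either medium.

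Csf1r was higher in 129S1-No1 than in C57B6-No1, 3.98-fold in mHep (1.99 ± 0.34, limma adjusted p = 0.00136) and 13.7-fold in eHep (3.77 ± 0.34, limma adjusted p = 2.01e-05). Of the 5 marker genes tested between these mice, Csf1r was called in mHep, beside 27.8% of all genes (12% higher and 15.8% lower). Csf1r and Lyz2 were called in eHep, beside 27.5% of all genes (14.9% higher and 12.5% lower). These contrasts of mice were chosen after the values were seen. In mHep these mice shared no slide, so mouse and slide cannot be told apart there. In eHep, replicate 1 of C57B6-No1 (Csf1r signal 37.3) lay on the slide of the 129S1-No1 arrays. The eHep difference stayed past the threshold under 7 of 7 alternatives and the mHep difference under 6 of 7, missing it without replicate 2 (1.90, limma adjusted p = 0.0589). Of the other Csf1r probes, the second was above background on 5 of 7 mHep and 5 of 7 eHep arrays and dark in primary cells. Its mHep levels were -2.18 in 129S1-No1, -3.87 in C57B6-No1, with -5.37 in 129S1-No2, and its eHep levels were -1.48, -3.98 and -5.78 in the same mice, the same order as for the brightest probe. The third was above background on 4 of 7 mHep arrays and 1 of 7 eHep arrays, and its brightest array was mHep of 129S1-No2 (41.9), where the other probes were at their lowest of mHep. The difference of Csf1r from primary cells was -2.20 ± 2.27 in mHep (limma adjusted p = 0.562) and -2.50 ± 2.27 in eHep (limma adjusted p = 0.505). It passed under 2 of 12 alternatives in mHep and 3 of 12 in eHep, among them C57B6-No1 alone (-2.25 in mHep and -3.08 in eHep). The raw mHep signals of C57B6-No1 (57.8, 90.4 and 63.8) all lay above the primary one (55.1). Its mHep difference is thus lower only relative to the array's percentile. In eHep its raw signals (37.3, 39.9 and 40.4) lay under the primary one.

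**Figure D3:**
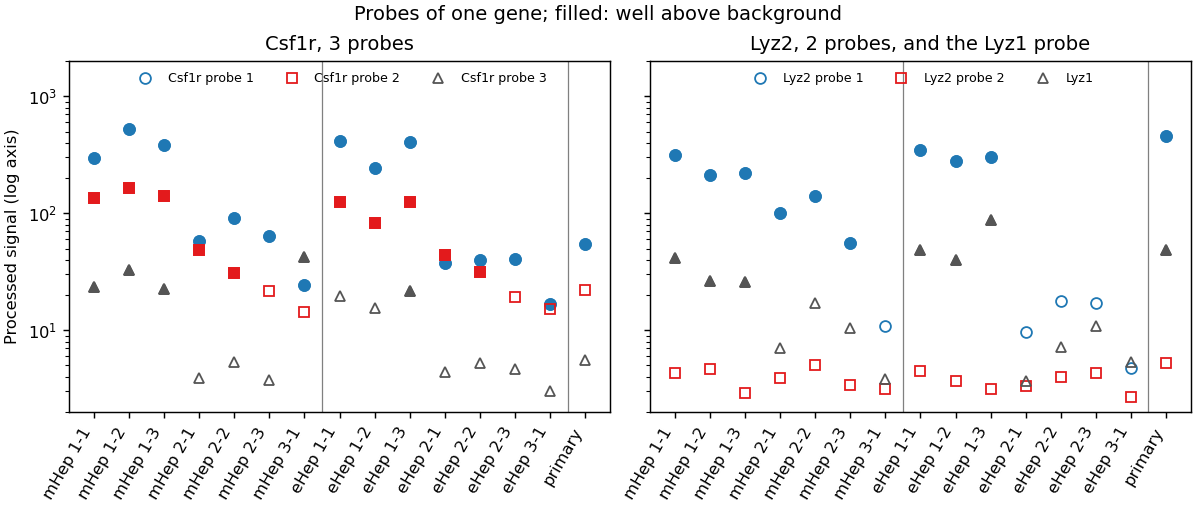
Processed signal (log axis) of the 3 Csf1r probes, the 2 Lyz2 probes and the Lyz1 probe on 15 arrays, filled where well above background. Csf1r probe 1 is at or above 244 on the 129S1-No1 arrays (replicates 1-1 to 1-3 of each medium) and at or under 90.4 on the other cultured arrays, and Lyz2 probe 2 is open on all arrays.

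Cd68 encodes a lysosomal membrane glycoprotein used as a general macrophage marker, although other cells also make it. In mHep its signals were 88.6, 126 and 172 in 129S1-No1, 97.4, 108 and 143 in C57B6-No1, with 141 in 129S1-No2. In eHep they were 434, 263 and 441 in 129S1-No1, 325, 319.8 and 284 in C57B6-No1, with 98.9 in 129S1-No2. Primary cells read 8.10, which was dark, although the software's less strict call counted it as detected. All cultured arrays were thus above the primary one, and in 129S1-No1 and C57B6-No1 each mHep array was under each eHep array, while 129S1-No2 ran the other way. In mHep the Cd68 level was -2.17 ± 0.21, against -3.27 in primary cells (limma adjusted p = 0.584), and the bound was under 1, so no fold is given. In eHep the level was -1.13 ± 1.73, at least 1.98-fold above the primary one, and the difference did not pass (2.14 ± 1.20, limma adjusted p = 0.276).

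The eHep difference of Cd68 passed the threshold under 2 of 12 alternatives. Without 129S1-No2 it was 3.11 (limma adjusted p = 0.0331), and with C57B6-No1 alone 2.67 (limma adjusted p = 0.0146). With normexp background it was 0.03 in eHep and -0.57 in mHep, so the direction in mHep depends on the background correction. The eHep bound, 0.99 on the same scale, does not hold under normexp. On the shared slide, the signals were 143 in mHep of C57B6-No1, 284 in eHep of C57B6-No1, 98.9 in eHep of 129S1-No2 and 8.10 in primary cells. The Cd68 probe (NM_009853), at chr11:69478314-69478373 in mm9, minus strand, is shown because Cd68 was bright in culture and dark in the isolate.
Cd68 probe: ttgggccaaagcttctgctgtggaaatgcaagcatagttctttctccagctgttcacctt

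The 14 other lysosomal genes of a fixed list were all above background on all 15 arrays. Against primary cells 1 of the 14 was called higher in mHep and in eHep, namely Cd63, a tetraspanin of late endosomes, with signals of 44010 to 81719 in mHep, 35997 to 106425 in eHep and 91.5 in primary cells. Over all genes tested, 4.02% were called higher in mHep and 5.61% in eHep. The median difference of the 14 was -0.97 in mHep and -0.70 in eHep, against -0.34 and -0.19 over all genes tested.

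Lyz2 encodes the lysozyme of macrophages and neutrophils. In mHep its brighter probe read 316, 213 and 223 in 129S1-No1, 99.95, 141 and 55.7 in C57B6-No1, with 10.8 in 129S1-No2. In eHep it read 345, 278 and 302 in 129S1-No1, 9.66, 17.8 and 17.0 in C57B6-No1, with 4.80 in 129S1-No2. Primary cells read 461. Lyz2 was dark in both media in 129S1-No2, dark in eHep but not in mHep in C57B6-No1, and above background in both media in 129S1-No1, where each signal was under the primary one. The difference from primary cells was -5.74 ± 2.84 in mHep (limma adjusted p = 0.240) and -6.71 ± 2.84 in eHep (limma adjusted p = 0.163). It passed under 3 of 12 alternatives in mHep and 4 of 12 in eHep, among them C57B6-No1 alone (-4.90 in mHep and -7.60 in eHep). Without 129S1-No1 the eHep difference was -8.79 (limma adjusted p = 0.0269).

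In C57B6-No1, Lyz2 was at least 4.81-fold higher in mHep than in eHep (level -2.34 against -5.04, difference 2.70 ± 0.51, limma adjusted p = 0.00296). In 129S1-No1 it was lower in mHep (level -1.43 against 0.01, difference -1.44 ± 0.51, limma adjusted p = 0.0400). Raw Lyz2 signals in 129S1-No1 overlapped between the media, and that fall appears relative to the 75th percentile, which was 627 to 727 on its mHep arrays against 249 to 363 on its eHep arrays. In eHep, Lyz2 was at least 24.6-fold higher in 129S1-No1 than in C57B6-No1 (5.05 ± 0.51, limma adjusted p = 4.13e-05), and in mHep the difference of 0.92 ± 0.51 did not pass (limma adjusted p = 0.213). The second Lyz2 probe (NM_017372), at chr10:116719175-116719234 in mm9, minus strand, was dark on all 15 arrays at 2.68 to 5.20. It is shown because the probes of this gene disagree, and the values above rest on the brighter one, at chr10:116714450-116714509.
Lyz2 second probe: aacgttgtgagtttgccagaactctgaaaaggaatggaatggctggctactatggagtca
The Lyz1 probe, which the array annotation also assigns to the Lyz2 transcript, read 41.7, 26.2 and 25.7 in mHep of 129S1-No1, 48.3, 40.1 and 86.8 in eHep of 129S1-No1 and 48.8 in primary cells. It was dark on the other 8 cultured arrays. Signal from these closely related lysozyme genes cannot be fully told apart.

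**Figure D4:**
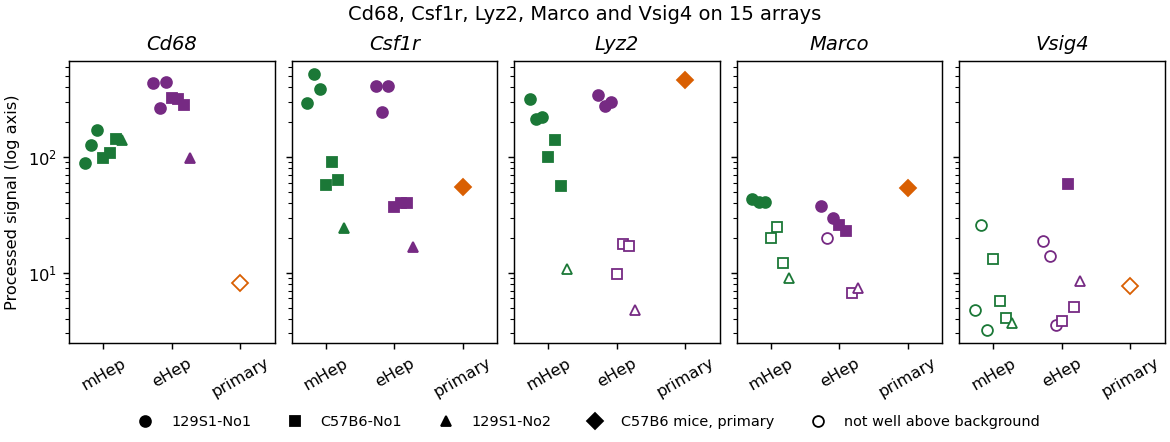
Processed signal (log axis) of Cd68, Csf1r, Lyz2, Marco and Vsig4 on each array, with symbols for the mouse and open symbols for probes not well above background. Circles (129S1-No1) lie above squares (C57B6-No1) and triangles (129S1-No2) for Csf1r in both media, and the primary array is open for Cd68 (8.10) and Vsig4 (7.62).

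Against primary cells, 9 of the 10 genes were tested in each medium. Clec4f, Cd5l, C1qa and C1qc were called lower in mHep and in eHep, and 6 of the 9 had an unadjusted p under 0.05 in each comparison. Over all 15167 genes tested, 9.99% were called in mHep (4.02% higher and 5.97% lower) and 15% in eHep (5.61% higher and 9.4% lower). Clec4f, Cd5l, C1qa, C1qc and Marco entered these tests only through the primary array, where they are bright, so the count of calls among them is not read as support. Both comparisons share the 1 primary array.

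Between the media, 4 of the 10 genes were bright enough to test over the 3 mice, and limma called 0 of them, with 0 at an unadjusted p under 0.05. Over all 14596 genes tested, 1.83% were called (1.38% higher and 0.452% lower in mHep). Lyz2 differed by 0.97 ± 0.81 between mHep and eHep (adjusted p = 0.647), Csf1r by 0.30 ± 0.51 (0.849), C1qb by 0.13 ± 0.44 (0.926) and Cd68 by -1.04 ± 0.72 (0.569). The mice did not move together. Cd68 differed by -2.69 in mouse 129S1-No1, by -1.42 in mouse C57B6-No1 and by 0.99 in mouse 129S1-No2. For Lyz2 these differences were -1.44, 2.70 and 1.66 in the same mice, and for Csf1r they were -0.95, 0.83 and 1.00. Without 129S1-No2, Cd68 was past the threshold at -2.06 (limma adjusted p = 0.0405), and the Csf1r difference turned to -0.06 and that of C1qb to -0.20. Without 129S1-No1 the Cd68 difference was -0.22 (limma adjusted p = 0.880), and over 14 alternatives it ran from -2.14 to -0.046 and passed under 3.

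Within 129S1-No1, 3 of 5 genes tested were called lower in mHep than in eHep, beside 44.5% of all genes (17.3% higher and 27.2% lower). They were Cd68 (-2.69 ± 0.36, limma adjusted p = 2.65e-04), Lyz2 (given above) and Csf1r (-0.95 ± 0.34, limma adjusted p = 0.0429). Raw Csf1r signals in this mouse overlapped between the media, at 294, 523 and 384 in mHep and 414, 244 and 411 in eHep. The Csf1r fall thus appears relative to the array's percentile, 627 to 727 in mHep against 249 to 363 in eHep. Cd68 stayed past the threshold under 7 of 7 alternatives, and Lyz2 and Csf1r under 3 of 7 each. The calls of both were lost without replicate 1 (limma adjusted p = 0.0696 for Lyz2 and 0.187 for Csf1r), without replicate 2 (0.273 and 0.144), with normexp and with the percentile of detected probes. All eHep arrays of this mouse lay on 1 slide and all its mHep arrays on another, so slide and medium cannot be told apart there. Within C57B6-No1, Lyz2 was called higher and Cd68 lower in mHep (-1.42 ± 0.36, limma adjusted p = 0.0146), beside 25.2% of all genes (11.8% higher and 13.4% lower). Both calls were lost without replicate 1 (limma adjusted p = 0.0684 for Lyz2 and 0.0536 for Cd68), without replicate 2 (0.0691 and 0.289) and with normexp (0.141 and 0.176). On the slide that held replicate 3 of C57B6-No1 in both media, the Lyz2 level was -3.67 in mHep and -5.28 in eHep, and the Cd68 level was -2.30 in mHep and -1.22 in eHep.

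The change in Lyz2 differed between the 129S1-No1 and C57B6-No1 mice by -4.13 ± 0.72 (limma adjusted p = 0.00389) and that in Csf1r by -1.78 ± 0.48 (limma adjusted p = 0.0307). These were 2 of 5 genes tested, beside 16.6% of all genes (6.29% higher and 10.3% lower). Each call held under 4 of 7 alternatives. Each was lost without replicate 1 (limma adjusted p = 0.0725 for Lyz2 and 0.278 for Csf1r), without replicate 2 (0.105 and 0.174) and with normexp, where the Lyz2 difference was -1.91 and that of Csf1r -1.07. The change in Cd68 did not differ past the threshold (-1.27 ± 0.51, limma adjusted p = 0.115).

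Of 25 other macrophage and myeloid genes, the mHep arrays detected 7 to 9, the eHep arrays 4 to 9 and the primary array 12. In the test against primary cells, 6 of 13 were called lower and 1 higher in mHep, and 7 lower and 1 higher in eHep, beside 5.97% and 9.4% of all genes called lower. Adgre1, Ctss, Fcgr1, Folr2 and Tyrobp, 5 of those called lower in each medium, entered the test only through the primary array, so these counts are not read as support. The brighter probe of Adgre1, the F4/80 antigen, was above background in primary cells alone, at 22.3, where the lowest signal called above background was 18.05, and its other probe was dark on all 15 arrays (4.05 in primary cells). The protease gene Ctss read at most 6.10 in mHep and 5.54 in eHep, all dark, and 138 in primary cells. The higher one was Cd14, a co-receptor for bacterial lipopolysaccharide that hepatocytes can also make, with signals of 17654 to 63636 in mHep, 3269 to 14931 in eHep and 36.2 in primary cells. Timd4, Siglec1, Cx3cr1, Cd163 and Itgam were dark on all 15 arrays, and Ptprc (CD45) was dark on all but 1 mHep array.

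No gene of this myeloid list was called between mHep and eHep by limma, beside 1.83% of all genes. Of 6 tested, 2 had an unadjusted p under 0.05. Mpeg1, a pore-forming protein of macrophages, differed by 2.30 ± 0.46 (limma adjusted p = 0.0789), the phagocyte oxidase gene Cybb by 2.28 ± 1.00 (0.360) and the macrophage gene Aif1 by 1.75 ± 1.06 (0.506). Aif1 was above background on 7 of 7 mHep and 4 of 7 eHep arrays, at up to 643 in mHep, 59.8 in eHep and 84.6 in primary cells. Cybb was above background on 7 of 7 mHep and 6 of 7 eHep arrays and dark in primary cells (4.09). Myeloid genes other than the 10 markers were thus read in the cultures too, and their part in the marker signals was not tested.

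Of 6 genes of the CSF1 axis, Csf1r included, 5 were tested against primary cells and limma called 0 in either medium (1 of 5 at an unadjusted p under 0.05 in mHep and 3 of 5 in eHep). Over all genes tested, 9.99% were called in mHep and 15% in eHep. Csf1, which encodes the receptor's ligand, had signals of 4287 to 18218 in mHep, 5674 to 19822 in eHep and 93.5 in primary cells. Its difference from primary cells was 3.55 ± 1.08 in mHep (limma adjusted p = 0.0919) and 3.92 ± 1.08 in eHep (limma adjusted p = 0.0568). Il34, the second ligand, read 76.0 to 376 in mHep, 102 to 1623 in eHep and 3.93, dark, in primary cells. Csf3r, which encodes the receptor for granulocyte colony-stimulating factor, was dark on all 15 arrays.

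The classical pathway partners of C1q are made largely by hepatocytes. C4b rose in mHep against eHep (4.91 ± 0.59, limma adjusted p = 0.0213), with signals of 977 to 17496 in mHep, 39.6 to 673 in eHep and 19621 in primary cells. It was the 1 of 6 partners called between the media, beside 1.83% of all genes. The C1 inhibitor gene Serping1 was above background on 6 of 7 mHep arrays (12.7 to 2152 over all 7), dark in eHep, and read 28456 in primary cells. Against primary cells Serping1 was called lower in mHep, and Serping1 and C4b were called lower in eHep, of 6 genes tested. Over all genes tested, 5.97% were called lower in mHep and 9.4% in eHep.

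**Figure D5:**
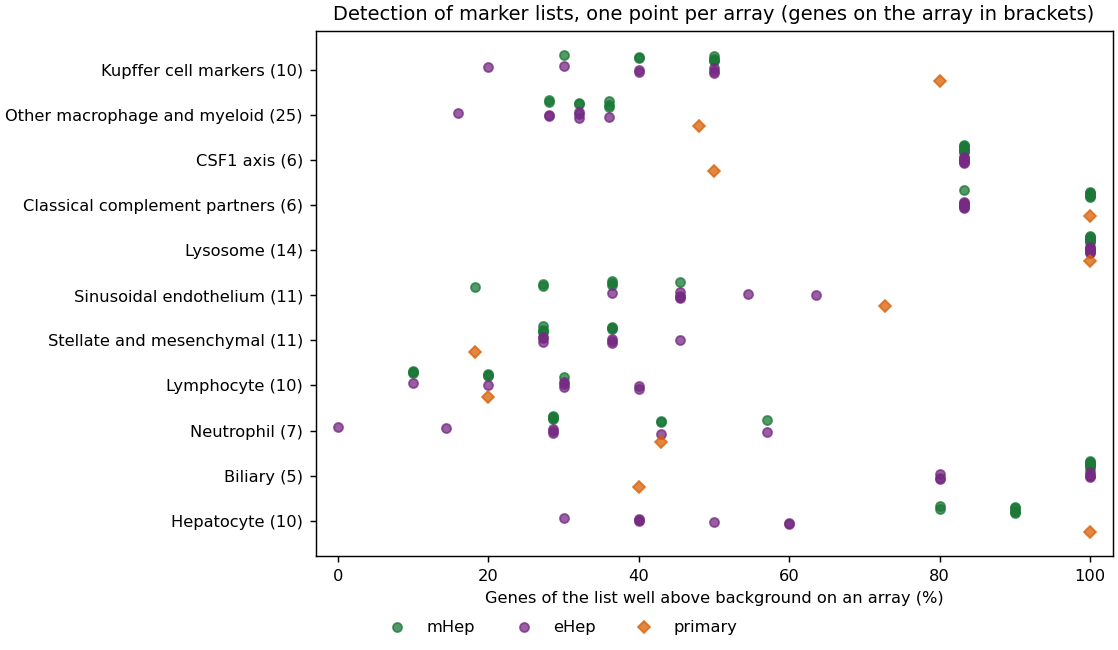
Share of each marker list that was well above background (horizontal axis, %), with 1 point per array for 7 mHep arrays, 7 eHep arrays and 1 primary array. The primary array is at the right of the cultures for the Kupffer markers (8 of 10), the other macrophage genes (12 of 25), the endothelial genes (8 of 11) and the hepatocyte genes (10 of 10), and at the left for the CSF1 axis (3 of 6), the stellate genes (2 of 11) and the biliary genes (2 of 5).

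Other liver cell types were read through their own lists. Of 11 genes of sinusoidal endothelium, the mHep arrays detected 2 to 5, the eHep arrays 4 to 7 and the primary array 8, and Clec4g, an endothelial lectin, read 8.02 to 21.4 in mHep, 19.6 to 36.8 in eHep and 978 in primary cells. In the test against primary cells, 3 of 8 endothelial genes were called lower in each medium (Clec4g, Cdh5 and Fcgr2b), beside the same 5.97% and 9.4% over all genes, and Cdh5 and Fcgr2b entered only through the primary array. The phosphatase gene Ptprb read 3.18 to 55.6 in mHep and 275 to 6018 in eHep, lower in mHep, with 90.6 in primary cells (-6.49 ± 0.42, limma adjusted p = 0.00330). Hepatocyte genes were all detected in primary cells (10 of 10), in mHep at 8 to 9 of 10 and in eHep at 3 to 6 of 10. Of 5 biliary genes the mHep arrays detected 5, the eHep arrays 4 to 5 and the primary array 2. Of 10 lymphocyte genes the mHep arrays detected 1 to 3, the eHep arrays 1 to 4 and the primary array 2, of 7 neutrophil genes 2 to 4, 0 to 4 and 3, and of 11 stellate and mesenchymal genes 3 to 4, 3 to 5 and 2. These counts hide bright single genes. In the neutrophil list, S100a8 read 49.8 to 51718 in mHep, 18.3 to 2481 in eHep and 82.1 in primary cells. S100a9 read 26.0 to 69593, 6.70 to 102 and 390 in the same order. In the stellate list, Dcn read 63.4 to 7075, 5.82 to 294 and 349. None of these was called between the media or against primary cells. Summed signals over the 75th percentile were 0.425 to 1.06 in mHep, 4.17 to 9.52 in eHep and 20.0 in primary cells for endothelium. In eHep the raw endothelial sum reached 6287 and Ptprb alone 6018, so a high sum there can rest on 1 gene. For the neutrophil list the sums over the 75th percentile were 0.175 to 172 in mHep, 0.067 to 10.5 in eHep and 6.86 in primary cells. The part of any of these cell types in the marker signals was not tested.

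The 5 markers above background on at least 8 of the 15 arrays (Marco, Csf1r, C1qb, Cd68 and Lyz2) were averaged, after centring each gene over the 7 preparations. The mean profile was 0.60 in mHep of 129S1-No1, -0.12 in mHep of C57B6-No1, -1.62 in mHep of 129S1-No2, 1.86 in eHep of 129S1-No1, -0.63 in eHep of C57B6-No1, -2.66 in eHep of 129S1-No2 and 2.55 in primary cells. In each medium 129S1-No1 was the highest mouse and 129S1-No2 the lowest. Both arrays of 129S1-No2 came from the earlier scan and all 6 of 129S1-No1 from the later one, so mouse and scan cannot be told apart between them. Over the cultured arrays, Marco read 6.72 to 12.2 in the earlier scan and 20.0 to 43.4 in the later one, and C1qb 16.9 to 41.6 and 60.7 to 121, each without overlap. Marco and Lyz2 were dark on both arrays of 129S1-No2, so their values there have no order. Of 12847 other named genes, the nearest by root mean square difference were Sdk2 (0.32), Rbks (0.34), Hbq1b (0.35), Tagln (0.36) and Syt13 (0.37), against a median of 1.79. Sdk2 encodes a cell adhesion protein, Rbks ribokinase, Tagln an actin-binding protein of smooth muscle and Syt13 a synaptotagmin.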

How the data were processed

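Signals came from 15 Agilent scanner files. Per the file headers, the processed signal deposited by the authors is an intensity read with Feature Extraction 10.7.1.1 or 10.7.3.1, background-subtracted and not scaled between arrays, and probe positions are mm9. The earlier of 2 scans, with version 10.7.1.1, held the primary array, both 129S1-No2 arrays and replicate 3 of C57B6-No1 in both media. The authors deposited a table of log2 values with a median of 4.92 on each array, whose making is not given in the sources used here. It tracked the log2 processed signals at r from 0.972 to 0.9999 and served as an alternative. Detection calls, coded 0 or 1, are other columns of the deposited files.

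Spots of a probe were averaged, and of 41174 probes, 27668 were named by RefSeq accession, 5589 by symbol, 471 by older symbol and 7446 kept as in the file. No probe was saturated. A gene with several probes was tested on the brightest by mean log2 signal. From each log2 signal the 75th percentile of its array was subtracted. limma 3.58.1 in R 4.3.3 compared mHep with eHep on means per mouse with mouse as a block. Cultures were compared with the single primary array without a mouse term, and changes and levels in 129S1-No1 and C57B6-No1 were compared on single arrays. The level contrasts were added after the values were seen. A gene was tested if detected on every array of 2 or more mice in either medium, or, in tests that involve primary cells, if detected there. Within mice, it had to be detected on all 3 arrays of at least 1 mouse and medium. Calls needed a Benjamini-Hochberg adjusted p under 0.05 over all genes tested and, against primary cells, a log2 difference of at least 1.

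Pairing by mouse comes from the labels. Over genes, the same mouse's departures from the mHep and eHep means had correlations of 0.397, 0.563 and 0.539, with no correlation between different mice above 0.0115. Departures from a mean of 3 mice depend on one another, and scan followed mouse in the same way in both media. These correlations are therefore a description and cannot test the pairing. The genes, lists and comparisons were chosen with earlier results of these data known. The genes named were the 10 markers, up to 4 genes of each other list with the largest change between media, dark defining markers and the 5 nearest profiles, and Ctss, Cd14, Csf3r and Cd63 were added after their values were seen. Exon and UTR annotation of the probes was not used here. The fits were tested on simulated data. Figures used matplotlib 3.10.9 and pandas 2.3.3, and tables were read with data.table (1.17.8).

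Alternatives were normexp background (offset 50), quantile normalization, the 75th percentile of detected probes, the table of the authors, no filter, the mean of all probes, leaving out mice or replicates, no mouse block, single arrays with and without slide, C57B6-No1 alone, and another detection call. Fits by scan and other scalings within mice were added after the data were seen.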

Additional observations from a re-analysis of the deposited data

Results flagged for a closer look

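Cd5l in replicate 3 of C57B6-No1 in eHep had a log2 level of -7.02, lower than on the other 6 eHep arrays. Its signal of 5.07 was dark, as on the others, so the order among them carries no level. It was 1 of 26 groups of arrays checked for an array far from the rest, and chance marks about 1 in 20. The changes of Lyz2 and Csf1r between the media differed between mice. The Lyz2 change differed by -4.13 between 129S1-No1 and C57B6-No1, lower in mHep in 129S1-No1 and higher in C57B6-No1. The Csf1r change differed by -1.78 between these mice. Slide and medium coincide in 129S1-No1, so that their parts cannot be told apart.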

How the results depend on the processing

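Clec4f, Cd5l, C1qa and C1qc stayed lower and past the threshold against primary cells under all 12 alternatives in both media. They entered the main tests only through the 1 primary array, which all these alternatives share, so this is not read as support. Over single markers, 374 alternatives kept direction and call, 43 brought a value past the threshold, 21 lost a call and 15 reversed. Causes were not tested. Reversed against the main value were Cd68 in mHep minus primary (-0.57 with normexp) and, in mHep minus eHep, Csf1r (-0.060 without 129S1-No2, -0.16 with slide), C1qb (-0.20 without 129S1-No2, -0.055 with 14 arrays as samples, -0.34 within the later scan) and Lyz2 (-0.10 with slide). Within C57B6-No1, Marco reversed with normexp (-0.030), and leaving out replicates gave -0.066 to 0.53 for Marco and -0.065 to 0.68 for C1qb. Marco reversed with normexp within 129S1-No1 (0.12) and in the difference of changes (0.15). For 129S1-No1 minus C57B6-No1 in mHep, Cd68 was 0.19 with normexp and -0.78 to 0.14 without single replicates, and C1qb was -0.21 to 0.84.

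Counts of genes over the whole array moved more. For mHep minus eHep (267), quantile normalization and the authors' deposited table gave 110 each, the percentile of detected probes 105, no filter 658, the earlier scan 1519, the later scan 470, 14 arrays as samples 5024, the same with slide 3006, and leaving out mouse 129S1-No1 1191, C57B6-No1 526 and 129S1-No2 792. The mouse pairing carried that count, since without the replicate block it was 2. For mHep minus primary (1515), normexp gave 958, no filter 8827, C57B6-No1 alone 4057, the earlier scan 3996, scan as a block 5628, and leaving out a mouse 270 to 1895. For eHep minus primary (2276) no filter gave 8498, C57B6-No1 alone 4958, the earlier scan 5488, scan as a block 5923, and leaving out a mouse 702 to 2791. Normexp and single replicates left out gave 3849 and 2083 to 7076 within 129S1-No1 (6998), 1647 and 1174 to 3786 within C57B6-No1 (3962), and 654 and 290 to 2781 for the difference of changes (2613).

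The share of calls that were higher was 40.2% in mHep minus primary, 53.9% with the percentile of detected probes and 61.4% with quantile normalization. It was 37.4%, 47.7% and 56.7% in eHep minus primary, 75.3%, 91.4% and 85.5% in mHep minus eHep, and 38.9%, 58.7% and 46.2% within 129S1-No1. The less strict detection call raised the detecting arrays for 14 of 30 marker and group pairs and lowered none. Among them were Cd68 and Vsig4, dark on the primary array and detected there by this call, Clec4f in mHep (1) and eHep (3), Cd5l in mHep (5) and eHep (6), and Marco and Lyz2 (7 in each). Dim probes limit what the cultures can show, since a dark probe gives only a bound.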
